A study of Mus musculus with 9 samples.

Results

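The troponins and tropomyosins are the regulatory proteins of the thin filament of striated muscle. The 9 genes described here were taken from the deposited tables by their symbols: the cardiac troponins Tnnt2, Tnni3 and Tnnc1, the slow skeletal and fetal isoforms Tnnt1 and Tnni1, and the tropomyosins Tpm1, Tpm2, Tpm3 and Tpm4. All 9 were found, among 15779 genes with values. The study measured polyA RNA by sequencing in hearts of adult C57BL/6J mice, in 3 groups of 3 libraries each. The first group was wild type and received saline. The second was homozygous for a premature stop codon in Mybpc3, the gene of cardiac myosin-binding protein C (genotype Mybpc3R946X/R946X, with the protein change R946X), and also received saline. The third had the same mutant genotype and received an agent that the labels call high-dose exABE8e. The series text describes adenine base editors, enzymes that convert an A-T base pair to G-C, carried by an adeno-associated virus for expression in cardiomyocytes, and the labels do not define exABE8e further. Both mutant groups therefore carry the mutation throughout the body, while the editor was directed at 1 cell type. Exact age, sex, dose and the number of animals behind a library were not given in the labels, so that p-values measure only the spread between these libraries.

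In the sarcomere, tropomyosin lies as a coiled coil along the actin filament, and a troponin complex sits on each tropomyosin. Troponin C binds calcium, troponin I holds the filament in its inhibited state, and troponin T anchors the complex to tropomyosin. In the mouse heart Tnni1 is the troponin I of fetal life and is replaced after birth by Tnni3, while Tpm1 supplies the main cardiac tropomyosin, Tpm2 is best known from skeletal and smooth muscle, and Tpm3 and Tpm4 give slow muscle and cytoskeletal forms.

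The deposited values were whole numbers that summed to between 999152 and 999382 per library. No label or header names their unit, sequencing depth is therefore unknown, and the precision of every value rests on the 3 libraries of its group. For Mybpc3 itself the wild-type libraries had 1510, 1795 and 2039, the saline mutants 133, 142 and 186, and the treated mutants 1024, 1374 and 1332. Treated mutants thus lay between the other groups without overlap, and the labels state no level of Mybpc3. Between 14151 and 14934 genes were above 0 per library, and mitochondrial transcripts took 17.0% to 24.1% of the total. One library of each group had values for Xist, an X-linked RNA of female cells, and treated replicate 1 is apart from the rest in having both Xist (39) and the Y-linked gene Ddx3y (38). That library is also the highest of the 9 for Tpm2 and Tnnc1. The treated means of Tpm2 and Tnnc1 are given with and without it, as are other Tpm2 results where stated. The defining cardiomyocyte genes were high in all groups, with Myh6, the adult cardiac myosin heavy chain, between 14823 and 23965.

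The tropomyosin genes resemble each other closely enough that reads could in principle be shared between them, so their sequences bear on how far the values can be read separately. The first 90 bases of the coding sequence are shown for the most alike full-length transcripts of Tpm1 and Tpm2, which have 284 codons each (GENCODE M21, GRCm38, coding strand, 5′ to 3′). Capitals mark bases that differ from Tpm1.
Tpm1: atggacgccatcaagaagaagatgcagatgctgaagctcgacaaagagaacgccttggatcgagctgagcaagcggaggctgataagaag
Tpm2: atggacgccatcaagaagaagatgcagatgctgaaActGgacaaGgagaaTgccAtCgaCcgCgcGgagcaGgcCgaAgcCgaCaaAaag
In this window Tpm2 differs from Tpm1 at 15 bases. The first 35 bases of Tpm1 and Tpm2 are the same, and this is the longest identical run of these 2 coding sequences, which match at 671 of 855 bases (78.5%). Over all annotated transcripts, 0 stretches of 50 bases were shared between any 2 of the 4 tropomyosin genes, and Tpm1, Tpm2 and Tnnc1 shared none with any other gene. Of the stretches of Tpm3, 23.2% also occur in other genes, mostly Tpm3-rs7, whose values were 5 to 8, and 15.7% of those of Tpm4 occur elsewhere, so these 2 values are the less certain ones. Exons of Tnni3 overlap those of Dnaaf3 over 4.17% of their bases, but Dnaaf3 was listed at only 1 to 5. Exons of Tpm4 overlap the antisense gene Gm26586 over 6.08%, and whether the counting used strand is not given in the sources used here.

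On the same build Tnnt2 lies at chr1:135836354-135852260 and Tnni1 at chr1:135779434-135810989, both on the plus strand and next to each other in the genome. Tnni3 (chr7:4518305-4524229) and Tnnt1 (chr7:4504570-4516382) form a similar pair on the minus strand. Tnnc1 is at chr14:31208312-31211729 on the plus strand. The tropomyosin genes are scattered, with Tpm1 at chr9:67022590-67049406 and Tpm2 at chr4:43514711-43523765 on the minus strand, and Tpm3 at chr3:90072649-90100902 and Tpm4 at chr8:72134975-72153142 on the plus strand. Each value covers a whole gene, exons of all transcripts together. Tpm1 has 21 annotated transcripts, and neither its muscle and cytoskeletal forms nor the splice forms of Tnnt2 can be told apart in these values.

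**Figure D1:**
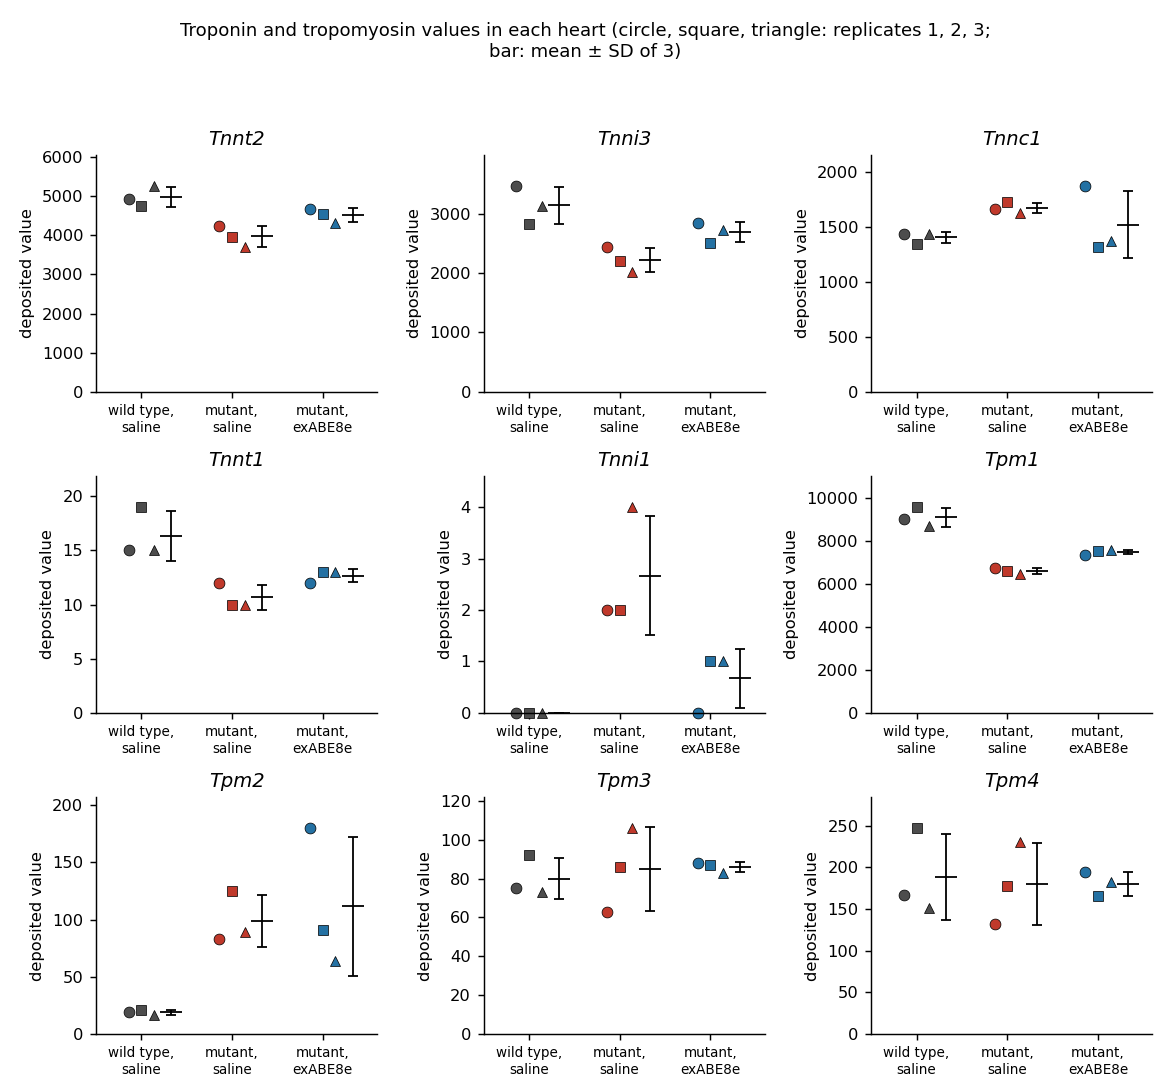
Deposited value (y axis, from 0, linear) of each of the 9 genes in every library, with colours for the 3 groups, a circle, square and triangle for replicates 1, 2 and 3, and a bar at the mean ± SD of each group. Tpm2 lies between 16 and 21 in wild-type hearts and between 64 and 180 in the 6 mutant hearts, whereas Tpm1 lies lower in both mutant groups than in wild type.

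In saline mutant hearts Tpm2 was about 5-fold higher than in wild type and the fetal troponin I gene Tnni1 appeared at a trace level. The abundant adult genes Tpm1, Tnni3 and Tnnt2 had values 20% to 30% below wild type that did not pass the test. Tnnc1, also abundant, went the other way, with a mean at 119% of wild type that did not pass either. Groups were compared with limma on log2(value + 1), and calls were made at an adjusted p under 0.05 (Benjamini-Hochberg over all genes tested). Of the 9 genes, 2 were called higher and 0 lower, against 7.70% of the 13632 genes tested (4.56% higher and 3.14% lower, which is 622 and 428 genes, or 630 and 674 with upper-quartile scaling). At an unadjusted p under 0.05 the members gave 7, against 19.7% of all genes. The values of the 2 groups did not overlap for 7 of the 9, against 21.6% of all genes. Their median log2 fold change was -0.07, beside 0.07 for all genes. Tnni1, listed at 0 in wild type, met the mean value required for testing only through the saline mutants. It is counted among the members called, at an unadjusted p under 0.05 and without overlap.

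Tpm2 encodes beta-tropomyosin. The wild-type hearts had values of 19, 21 and 16, the saline mutants 83, 125 and 89, and the treated mutants 180, 91 and 64. Every mutant heart, treated or not, was above every wild-type heart, and the 3 treated hearts spread around the saline mutants on both sides. The means were 18.7 ± 2.52 in wild type, 99.0 ± 22.7 in saline mutants and 112 ± 60.7 in treated mutants (SD, n = 3 each), the last being 77.5 without treated replicate 1. Between saline mutants and wild type the mean ratio was 5.3 and the log2 difference 2.33 (SE 0.172, 95% interval 1.94 to 2.72, limma adjusted p = 0.000207). This call held in 18 of 18 other settings of the analysis. It ranked 27 by p among the 13632 genes.

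Tnni1, the slow skeletal and fetal troponin I, was listed at 0 in each wild-type heart. It was 2, 2 and 4 in the saline mutants and 0, 1 and 1 in the treated ones. The difference between saline mutants and wild type was called (limma adjusted p = 0.0038), but these values are 1 to 4 steps of the rounding, and no fold is given against a group listed at 0. The call was lost with a pseudocount of 0.1 (limma adjusted p = 0.179) and without the 3 libraries with Xist (0.0814), and the gene fell under the filter without saline mutant replicate 3.

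Tnni3, the adult cardiac troponin I, had values of 3469, 2836 and 3130 in wild type, 2436, 2210 and 2026 in the saline mutants and 2840, 2508 and 2730 in the treated ones. The saline mutants lay below all hearts of the other 2 groups. Their mean was 70.7% of the wild-type mean, a log2 difference of -0.50 (SE 0.128, 95% interval -0.79 to -0.21), and the limma adjusted p of 0.0505 stood just outside the threshold.

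Tpm1, alpha-tropomyosin, was 9019, 9568 and 8707 in wild type, 6753, 6588 and 6457 in the saline mutants and 7364, 7530 and 7561 in the treated ones. The 3 groups did not overlap, with treated hearts between the other 2. The mean of saline mutants was 72.5% of wild type (log2 -0.46, SE 0.125, limma adjusted p = 0.0638). Tnnt2, cardiac troponin T, was 4933, 4755 and 5258 in wild type, 4250, 3964 and 3708 in the saline mutants and 4666, 4552 and 4314 in the treated ones. It had the same order without overlap, and its mean in saline mutants was 79.8% of wild type (log2 -0.33, SE 0.120, limma adjusted p = 0.166).

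Tnnt1, slow skeletal troponin T, was low throughout. Its values were 15, 19 and 15 in wild type, 12, 10 and 10 in the saline mutants and 12, 13 and 13 in the treated ones. All 6 mutant hearts were below all 3 wild-type hearts, and the saline mutant mean was 65.3% of wild type (log2 -0.57, SE 0.150, limma adjusted p = 0.0569). The other slow skeletal isoform, Tnni1, was listed at 0 in wild type and could not be lower in the mutants. The direction of Tnnt1 is therefore not set against that of Tnni1. Tnni3, Tpm1 and Tnnt1 were near the threshold: they were called lower in 5, 3 and 6 of 18 other settings.

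Tnnc1, the troponin C of heart and slow muscle, stood higher in the saline mutants. It was 1432, 1348 and 1431 in wild type, 1664, 1723 and 1629 in the saline mutants and 1870, 1319 and 1371 in the treated ones. Saline mutants and wild type did not overlap, and the log2 difference of 0.25 (SE 0.0980, limma adjusted p = 0.191) did not pass the test. In the treated group 1 heart was the highest of all 9 and 1 the lowest, and the treated mean was 1520, or 1345 without treated replicate 1.

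Tpm3 and Tpm4 overlapped between the groups in every comparison. Tpm3 was 80.0 ± 10.4 in wild type, 85.0 ± 21.5 in saline mutants and 86.0 ± 2.65 in treated mutants (SD, n = 3). Tpm4 was 188 ± 51.4, 180 ± 49.1 and 180 ± 14.6 in the same order. For Tpm3 the interval of the log2 difference between saline mutants and wild type ran from -0.36 to 0.48, and for Tpm4 from -0.60 to 0.45. The values of 3 libraries a group do not tell apart the differences inside these intervals.

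**Figure D2:**
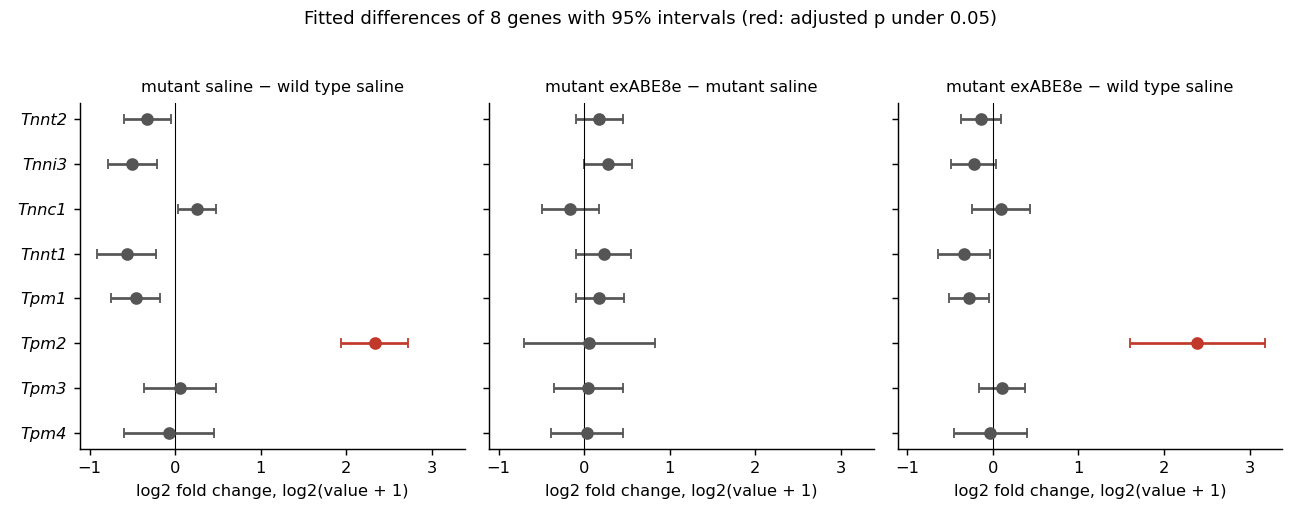
Log2 fold change on log2(value + 1) with its 95% interval from limma for 8 of the genes in the 3 comparisons, in red where the adjusted p was under 0.05, with Tnni1 left out since it was listed at 0 in wild type. Tpm2 stands apart at 2.33 and 2.39 in the comparisons with wild type and at 0.06 between the mutant groups, where its interval includes 0.

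The comparison of treated with saline mutants sets hearts that received the agent beside hearts that received saline, all of the same mutant genotype. No group received the virus without an active editor, so effects of the virus and of editing cannot be told apart. None of the 9 genes was called by limma, against 0.0147% of 13636 genes, which is 2 genes in all (0.00733% higher and 0.00733% lower). At an unadjusted p under 0.05 the members gave 1 (Tnni1) and all genes gave 1130 (8.29%). The values did not overlap for 4 of the 9 (Tnnt2, Tnni3, Tnni1 and Tpm1), against 9.82% of all genes. Tnni1, at most 4 in any heart, met the mean value required for testing only through the saline mutants. Tpm1 was higher in treated hearts by 0.18 (95% interval -0.10 to 0.47), Tnnt2 by 0.18 (-0.09 to 0.46) and Tnni3 by 0.28 on the log2 scale, with limma adjusted p values of 0.741, 0.72 and 0.606. The means of treated hearts were 82.3%, 90.5% and 85.6% of the wild-type means for these 3 genes.

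Tpm2 differed by 0.06 between treated and saline mutants on the log2 scale (SE 0.335, 95% interval -0.70 to 0.83, limma adjusted p = 1). Leaving out treated replicate 1 turned the sign to -0.35, leaving out replicate 1 of the saline mutants to -0.05, and leaving out the 3 libraries with Xist to -0.41. Treated replicate 1 gave the 180, and the other 2 treated hearts gave 91 and 64. The coefficient of variation of Tpm2 was 54.4% in treated hearts, 22.9% in saline mutants and 13.5% in wild type.

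Between treated mutants and wild-type hearts, 1 of the 8 genes tested was called higher and 0 lower, against 0.989% of 13554 genes (0.863% or 117 genes higher and 0.125% or 17 lower, or 116 and 44 with upper-quartile scaling). At an unadjusted p under 0.05 the members gave 3, against 12.5% of all genes. The called gene was Tpm2, with a treated mean 5.98 times the wild-type mean (4.15 times without treated replicate 1) and a log2 difference of 2.39 (SE 0.338, 95% interval 1.60 to 3.18, limma adjusted p = 0.029). The limma adjusted p ranged from 0.00518 to 0.11 over 18 other settings, and the call was lost in 6 of them. These were the fit without the rounding floor (0.11), the fits without wild-type replicate 1, 2 or 3 (0.0989, 0.094 and 0.107), without treated replicate 2 (0.0882), and without the 3 libraries with Xist (0.0546). It held without treated replicate 1, and the log2 difference stayed between 1.98 and 2.72 whichever library was left out. Tnni1 was under the filter here. The groups did not overlap for 4 of the 8 genes (Tnnt2, Tnnt1, Tpm1 and Tpm2), against 14.6% of all genes. The log2 differences of Tpm1, Tnnt1 and Tnnt2 were -0.28 (limma adjusted p = 0.303), -0.34 (0.346) and -0.14 (0.609). This comparison shares its wild-type hearts with the first and its treated hearts with the second, so the 3 are not independent.

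Ratios of 2 isoforms within a library do not depend on library scaling, and they show the balance of fetal, slow and adult forms directly. The 5 ratios were compared in 3 comparisons by two-sided exact permutation tests, where 3 against 3 libraries cannot give a p below 0.10 and the smallest p after adjustment over the 15 tests was 0.3. The log2 ratio of Tpm2 to Tpm1 was -8.82, -8.76 and -9.00 in wild-type hearts. The saline mutants had -6.33, -5.71 and -6.17 and the treated mutants -5.35, -6.36 and -6.86. All 6 mutant hearts were thus above all wild-type hearts, by 2.79 for saline mutants and 2.67 for treated mutants (exact permutation p = 0.10 each, adjusted p = 0.3), the latter being 2.25 without treated replicate 1. This is a 6.93-fold and a 6.38-fold difference in the balance, larger than that of Tpm2 alone because Tpm1 stood lower. Between treated and saline mutants the ratio differed by -0.12 (exact permutation p = 0.80), and by -0.54 without treated replicate 1.

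The ratios of the cytoskeletal tropomyosins differed less from wild type. Tpm3 to Tpm1 was 0.52 above wild type in saline mutants (exact permutation p = 0.20) and 0.39 above it in treated mutants, where the groups did not overlap (exact permutation p = 0.10, adjusted p = 0.3). Tpm4 to Tpm1 was 0.39 and 0.25 above wild type, with overlap (exact permutation p = 0.20 and 0.30). Tnnt1 to Tnnt2 was 0.24 lower in saline mutants on this scale, coded -0.24 (exact permutation p = 0.20). Tnni1 to Tnni3 was 2.33 above wild type in saline mutants (exact permutation p = 0.10) and 0.89 above it in treated mutants (exact permutation p = 0.20). It was -1.44 in treated against saline mutants without overlap (exact permutation p = 0.10, adjusted p = 0.3), the one ratio of the 5 whose mutant groups did not overlap. These sizes depend on the pseudocount, since Tnni1 was at most 4 and was listed at 0 in wild type: the 3 values were 5.21, 2.53 and -2.69 with a pseudocount of 0.1, and 1.10, 0.40 and -0.71 with one of 5.

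**Figure D3:**
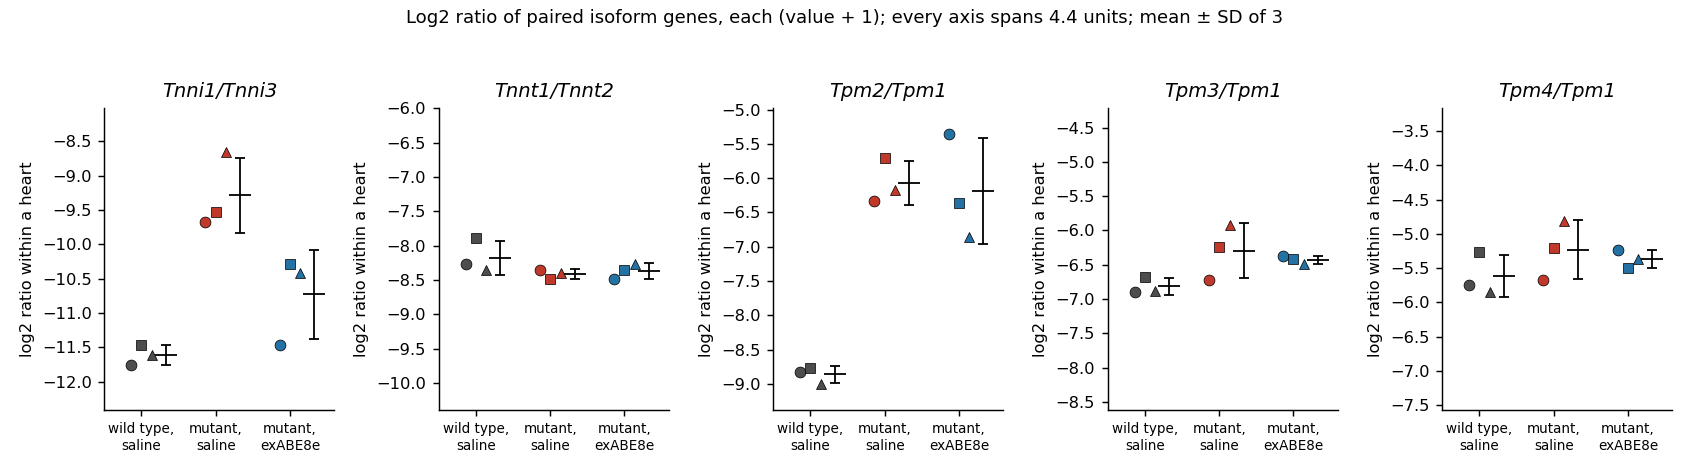
Log2 ratio of each slow, fetal or cytoskeletal isoform to its adult cardiac counterpart, computed as (value + 1) over (value + 1), with a circle, square and triangle for replicates 1, 2 and 3, a bar at the mean ± SD of each group, and y axes of equal span. In the Tpm2 to Tpm1 panel all 6 mutant hearts lie above all 3 wild-type hearts, at means of -6.07 and -6.19 against -8.86.

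Even at its highest level Tpm2 remained a small part of the tropomyosin transcripts. As a share of the summed values of the 4 tropomyosin genes it was 0.198% ± 0.0173 in wild type, 1.42% ± 0.325 in saline mutants and 1.42% ± 0.779 in treated mutants (SD, n = 3). Without treated replicate 1 the last was 0.984%. Tpm1 held 97.0%, 94.8% and 95.2%. The summed value, which was not tested, was 9385 ± 499 in wild type, 6963 ± 75.3 in saline mutants and 7863 ± 33.2 in treated mutants. Troponin I summed to 3145 ± 317, 2227 ± 204 and 2693 ± 169, of which Tnni1 was 0.123% in saline mutants. Troponin T summed to 4998 ± 253, 3985 ± 272 and 4523 ± 179, of which Tnnt1 was 0.267% to 0.329%. These shares compare levels between genes and hold only if the deposited values were scaled for transcript length.

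Under the same condition, the order of the levels in wild-type hearts was Tpm1, Tnnt2, Tnni3, Tnnc1, Tpm4, Tpm3, Tpm2, Tnnt1 and Tnni1. Neighbours in this order did not overlap except Tpm2 and Tnnt1. In both mutant groups Tpm2 moved up to the level of Tpm3, and their values overlapped. In treated hearts replicate 1, at 180, also reached the range of Tpm4, which was 165 to 194.

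Other thin filament genes were followed on a list of 12, of which 11 had values. They include actins, tropomodulins that cap the filament, leiomodins, nebulin and its relatives, and fast skeletal troponins. Between saline mutants and wild type, 2 of the 9 tested were called higher and 1 lower, against 4.56% and 3.14% of all genes, with a median log2 fold change of 0.04 beside 0.07. Acta1, skeletal alpha-actin and the actin of the fetal heart, was 266, 437 and 597 in wild type, 4810, 4989 and 4824 in the saline mutants and 971, 1087 and 841 in the treated ones. It rose by 3.56 in saline mutants (SE 0.249, limma adjusted p = 0.000178) and was lower by 2.34 in treated than in saline mutants, coded -2.34 (SE 0.127, limma adjusted p = 0.000254). Acta1 was the only gene on this list called between the mutant groups, against 0.0147% of all genes. The log2 ratio of Tpm2 to Acta1 was -4.40 ± 0.70 in wild type, -5.63 ± 0.28 in saline mutants and -3.23 ± 0.70 in treated mutants (SD, n = 3). It thus differed by -1.23 between saline mutants and wild type, by 2.40 between the mutant groups and by 1.17 between treated mutants and wild type, the last 2 being 2.0 and 0.77 without treated replicate 1. This ratio was chosen after its values were seen and is given as a description.

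Neb, nebulin, was 2, 5 and 4 in wild type, 32, 24 and 28 in the saline mutants and 16, 16 and 14 in the treated ones. It was called higher in both mutant groups than in wild type (log2 2.68 and 1.86, limma adjusted p = 0.000597 and 0.0281), and the mutant groups did not overlap, at -0.82 (limma adjusted p = 0.158). Tmod4, a tropomodulin of skeletal muscle, fell by 0.70 in saline mutants (limma adjusted p = 0.0495). Actc1, the adult cardiac actin, was 10692, 10722 and 9667 in wild type, 13680, 12664 and 12481 in the saline mutants and 14449, 11065 and 11730 in the treated ones. Neither mutant group overlapped wild type, and the differences of 0.32 and 0.25 did not pass the test (limma adjusted p = 0.244 and 0.504). Lmod2, a leiomodin that lengthens thin filaments, differed without overlap by 0.45 between saline mutants and wild type (limma adjusted p = 0.1). Cap2, an actin-binding protein, differed without overlap by -0.22 in that comparison and by 0.21 between the mutant groups. It was called in neither (limma adjusted p = 0.282 and 0.671). Both sarcomeric actins thus had higher values in the mutants. In saline mutants Tpm1, Tnnt2 and Tnni3 had lower values than in wild type, and Tnnc1 had higher ones. Tnni2 and Tnnt3, the fast skeletal troponins, were at most 1 in every heart.

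**Figure D4:**
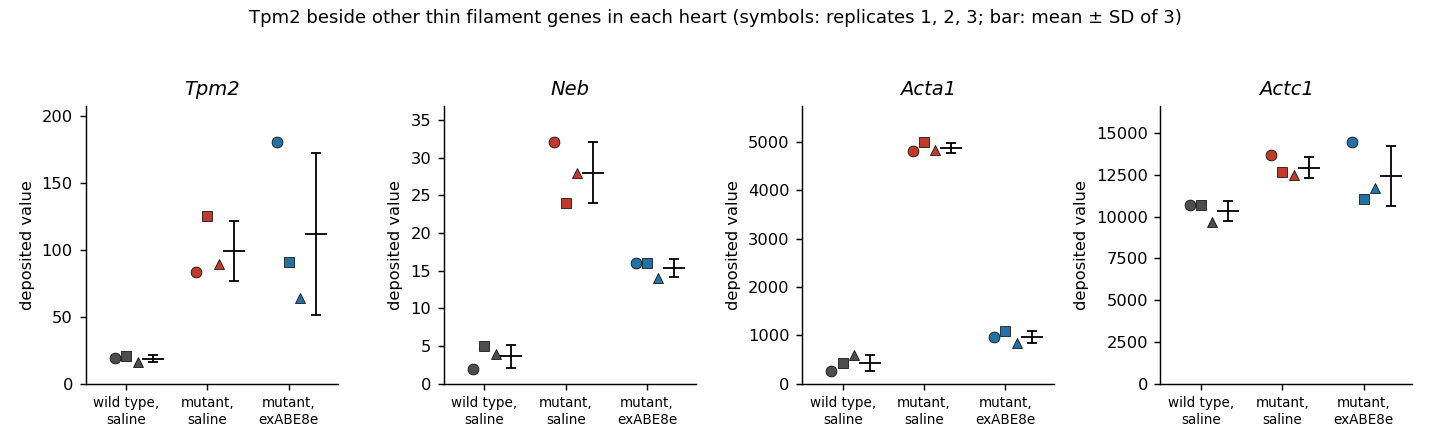
Deposited values of Tpm2, Neb, Acta1 and Actc1 in each library (y axes from 0, linear), with a circle, square and triangle for replicates 1, 2 and 3 and a bar at the mean ± SD of each group. Acta1 in treated hearts (841 to 1087) lies between the other groups, whereas Tpm2 in treated hearts (64 to 180) spans the range of the saline mutants (83 to 125), and Actc1 in both mutant groups lies above wild type.

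Genes that act on troponins and tropomyosins were followed on 3 further lists. Of 18 kinases and phosphatase subunits that act on troponin I and T, 2 were called higher and 1 lower in saline mutants than in wild type, against 4.56% and 3.14% of all genes, with a median of 0.06. Prkca and Prkcd, protein kinases C that phosphorylate troponin I, rose by 0.70 and 0.98 on the log2 scale (limma adjusted p = 0.0182 and 0.00536). Tnni3k, a cardiac kinase named for its binding to troponin I, fell by 0.57 (limma adjusted p = 0.0145), with 109, 121 and 121 in wild type and 84, 82 and 70 in saline mutants. In the other 2 comparisons none of the 18 was called by limma, against 0.0147% and 0.989% of all genes. At an unadjusted p under 0.05 there were 1 and 4, against 8.29% and 12.5% of all genes. Groups did not overlap for 7, 3 and 8 of them in the 3 comparisons, against 21.6%, 9.82% and 14.6% of all genes.

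Of 11 splicing regulators tested, Celf2 was called higher by 0.45 (limma adjusted p = 0.0312) and Rbfox1 lower, at -1.13 (limma adjusted p = 0.00248), in saline mutants, against the same 4.56% and 3.14%. Celf and Rbfox proteins are known to control exons of muscle transcripts, troponin T among them. Rbfox1 was 20, 24 and 28 in wild type, 11, 10 and 10 in the saline mutants and 12, 22 and 18 in the treated ones. The list's median was 0.17, beside 0.07 for all genes. Of 14 transcription factors, Vgll2 was called higher and Tbx5 lower in saline mutants, against the same 4.56% and 3.14% of all genes. Vgll2 was also called higher in treated mutants against wild type, where 0.863% of all genes were. Between the mutant groups limma called 0 of the splicing regulators and 0 of the transcription factors, against 0.0147% of all genes. At an unadjusted p under 0.05 these lists gave 2 and 0, against 8.29% of all genes. Vgll2, a cofactor that promotes slow muscle genes in skeletal muscle, was listed at 0 in each wild-type heart, and was 4, 9 and 5 in the saline mutants and 12, 5 and 3 in the treated ones (limma adjusted p = 0.000783 and 0.0299). Against wild type, Vgll2 met the mean value required for testing only through the mutant hearts. Its values are also few steps of the rounding. Tbx5, a factor of heart development, fell by 0.52 (limma adjusted p = 0.0366). Vgll2, like Tpm2, had its highest value in treated replicate 1.

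In bulk tissue, fewer cells of a type and less RNA per cell cannot be told apart, so the summed values of cell type markers are given beside these results. None of the 6 cardiomyocyte markers, which include Tnnt2 itself and Actc1, was called by limma in any comparison. Between saline mutants and wild type, 3 had an unadjusted p under 0.05 (Tnnt2 at -0.33, Pln at -0.41 and Actc1 at 0.32), against 19.7% of all genes. In the other comparisons 0 of the 6 did, against 8.29% and 12.5%. Their sum, most of it Myh6 and Actc1, was 39920 to 47090 in wild type, 41235 to 50740 in saline mutants and 43335 to 46172 in treated mutants. Smooth muscle also expresses Tpm2. All 7 smooth muscle and pericyte markers had values, and their sum was 1175 to 1439, 930 to 1148 and 952 to 1136 in the same order. Most of the sum is Rgs5, and in saline mutants Myocd (0.40) and Cnn1 (0.19) had higher values and Rgs5 (-0.21) and Myh11 (-0.31) lower ones, none of these called. The part of smooth muscle in the values of Tpm2 was not tested. Acta2, smooth muscle actin, fell by 1.09 in saline mutants (limma adjusted p = 0.00722), from 257, 328 and 189 to 118 in 2 hearts and 117 in the other. Tagln, another defining marker, was at most 1 in every heart.

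The 6 fibroblast markers summed to 1025 to 1393 in wild type, 1628 to 2723 in saline mutants and 1211 to 1628 in treated mutants. Col1a1, a fibrillar collagen chain, was called higher in saline mutants. Fibroblasts express cytoskeletal tropomyosins, and the part of this shift in the values of Tpm1, Tpm2, Tpm3 and Tpm4 was not tested. Of 10 fast skeletal muscle markers 5 had values, Myh4, Tnnt3 and Tnni2 were at most 1 everywhere, and the sum was 31 to 33 in wild type, 13 to 23 in saline mutants and 27 to 35 in treated mutants. Most of it was Myl1, a fast skeletal myosin light chain, which fell by 0.95 in saline mutants (limma adjusted p = 0.0117). Of 4 atrial markers 2 had values, while Myl7 and Sln were not listed. Both were called higher in saline mutants (log2 3.95 and 1.19, limma adjusted p = 0.0011 and 0.0125, for Nppa and Myl4), against 4.56% of all genes. Myl4 was 1 in each wild-type heart and 3, 3 and 5 in the saline mutants, which is a few steps of the rounding. The sum of the 2 atrial genes with values, Nppa and Myl4, was 43 to 62, 359 to 1494 and 158 to 258, nearly all of it Nppa, which ventricles also express under load, and its relation to Tnni1 and Tpm2 was not tested.

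The 4 erythroid markers summed to 101 to 307 in wild type, 67 to 84 in saline mutants and 136 to 155 in treated mutants. Saline mutants did not overlap wild type or treated mutants for any of the 4, against 21.6% and 9.82% of all genes. The median log2 difference from wild type was -1.39. Alas2, the first enzyme of erythroid heme synthesis, was the 1 called (-1.35, limma adjusted p = 0.0361), against 3.14% of all genes called lower. The relation of these 4 markers to the 9 genes was not tested. Endothelial markers summed to 791 to 1137, 735 to 835 and 744 to 889, macrophage markers to 121 to 151, 124 to 222 and 85 to 153, and platelet markers to 9 to 16, 8 to 15 and 8 to 13 in the same order of groups. None of these last 3 lists had a called gene by limma in any comparison. None had a gene at an unadjusted p under 0.05 either, against 19.7%, 8.29% and 12.5% of all genes.

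The genes whose pattern was most like that of Tpm2 were found by the root mean square difference of log2(value + 1), centred per gene, over 9 libraries and among 8786 genes. The nearest was Tnfrsf12a, a receptor of the tumour necrosis factor family, at 0.28, with 32, 25 and 20 in wild type, 155, 134 and 150 in the saline mutants and 199, 104 and 93 in the treated ones. Next came Dct, known from pigment cells, at 0.32 and Ccn2, a matricellular protein, at 0.38. Ccn2 was 47, 52 and 59 in wild type, 176, 171 and 271 in the saline mutants and 364, 178 and 175 in the treated ones. All 3 shared with Tpm2 higher values in every mutant heart than in every wild-type heart and a maximum in treated replicate 1. Since they were selected over these same libraries, the shared pattern follows from the selection and is only a description. The ranking was not repeated without treated replicate 1. For Tnni1, whose own values are a few steps of rounding, the nearest were Samd5 (0.29), Sept6 (0.31) and Fibin (0.31). Samd5 was 6, 11 and 7 in wild type, 29, 26 and 34 in the saline mutants and 8, 11 and 17 in the treated ones.

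**Figure D5:**
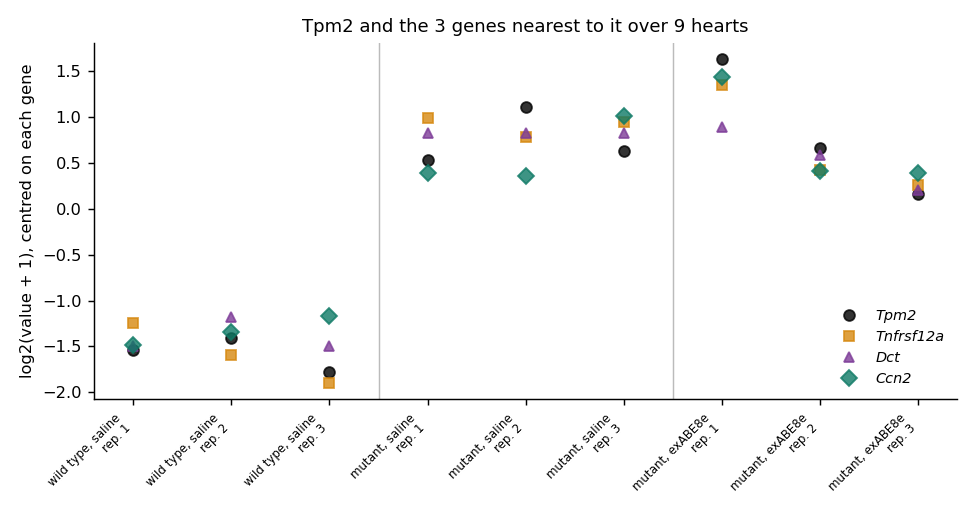
Log2(value + 1) of Tpm2 and its 3 nearest genes in the 9 libraries, each centred on its own mean, with 1 marker shape per gene and the libraries along the x axis by group. The 3 wild-type libraries are low for all 4 genes, and treated replicate 1 is their highest library. The nearest genes were selected on these same values.

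The authors' deposited table gives log2 fold changes for Tpm2 of 2.34 (SE 0.306), 0.23 (SE 0.323) and 2.58 (SE 0.384) in the 3 comparisons. For Tpm1 the authors' deposited table has -0.53 (SE 0.134) between saline mutants and wild type, with a p of 8.38e-05 that is not adjusted for the number of genes. For Tnni3 the authors' deposited table has -0.57 (SE 0.166), with an unadjusted p of 0.000689. Of the 9 genes, the authors' selected lists of 689, 137 and 317 genes hold Tnni1 and Tpm2 for saline mutants against wild type, none for treated against saline mutants, and Tpm2 for treated mutants against wild type.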

How the data were processed

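For every pair of groups, 1 table of all genes and 1 of selected genes came from the authors. Per the submitters' processing notes, HISAT2, HTSeq, DESeq2 and mm10 were used, with versions and roles not given in the sources used here. The values deposited per library were treated as a score: whole numbers with nearly equal library totals, unlike counts, so that no count test was run. The authors' mean signal, log2 fold changes and test statistic come from their own comparisons, and the deposited column named as the adjusted p-value equals the unadjusted p-value of that statistic. Genes listed in several tables had 0 differing values.

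The fit used limma 3.58.1 (R 4.3.3) on log2(value + 1) with each pair of groups alone and genes whose mean over those 6 libraries reached 1. This scale understates the fold change of low genes. Residual variances were set to at least the rounding variance (1/12 on the value scale), with the prior degrees of freedom taken from genes with a mean of at least 30, and the procedure was tested on simulated data. Isoform ratios were tested by exact permutation (scipy 1.17.1). Groups came from the labels. Alternatives changed the pseudocount, filter, scaling, variance step, samples in the fit, replicate block and libraries. The text names the 9 genes, called genes of the fixed lists and their defining markers, non-overlapping thin filament genes and the 3 nearest genes to Tpm2 and Tnni1. The genes and lists were chosen with earlier results of these data known. Leaving treated replicate 1 out of the means, the share and the Tpm2 to Acta1 ratio was added after seeing the data. Positions and sequences are from GENCODE M21 (GRCm38).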

Additional observations from a re-analysis of the deposited data

How the results depend on the processing

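Of the log2 fold changes of the 9 genes, 426 of the values under other settings kept direction and call, 14 passed the threshold newly, 8 lost it and 17 turned sign. The number of genes called between saline mutants and wild type (1050) became 556 without the 3 libraries with Xist and 506 to 1029 without 1 replicate. Between treated and saline mutants (2) it was 7 with a pseudocount of 5, 6 with a filter at a mean of 10, 10 with median-of-ratios and 10 with upper-quartile scaling, 32 without the rounding floor, 14 with the prior from all genes, 13 with all 3 groups in 1 fit, and 2 to 8 without 1 replicate. Between treated mutants and wild type (134) it was 86 with no filter, 77 without the rounding floor, 243 with the prior from all genes, 248 with all 3 groups in 1 fit, 9 without the libraries with Xist, and 1 to 133 without 1 replicate. The causes were not tested.

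The log2 fold change of Tpm2 against wild type was 2.12 to 2.44 in saline mutants over all settings. In treated mutants it was 2.39 (not called) without the rounding floor, 2.0 (not called) without the libraries with Xist, and 1.98 to 2.72 without 1 replicate. Between the mutant groups it was -0.41 without the libraries with Xist and -0.35 to 0.39 without 1 replicate, with -0.35, -0.05 and -0.00287 among these. For genes not called, signs turned as follows. Tpm3 in saline mutants against wild type was -0.01 with median-of-ratios and -0.03 with upper-quartile scaling, -0.15 without the libraries with Xist and -0.11 to 0.26 without 1 replicate. Tpm3 between mutant groups was -0.15 to 0.22 without 1 replicate. Tpm4 was -0.27 to 0.14, -0.16 to 0.23 and -0.17 to 0.18 in the 3 comparisons without 1 replicate. Tnnc1 in treated mutants against wild type was -0.05 without the libraries with Xist and -0.06 to 0.19 without 1 replicate. Among the ratios, 142 values kept their direction and 8 turned, all between the mutant groups. Tnnt1/Tnnt2 was -0.01 with a pseudocount of 5 and -0.00181 to 0.11 without 1 replicate. Tpm2/Tpm1 was -0.54 to 0.22 without 1 replicate. Tpm3/Tpm1 was 0.03 without the libraries with Xist and -0.35 to 0.05 without 1 replicate. Tpm4/Tpm1 was 0.00196 without the libraries with Xist and -0.36 to 0.07 without 1 replicate.

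The groups share replicate numbers, which the labels do not tie to animals or batches. Same-numbered libraries deviated together, with r over 0.1, in 4 of 9 pairs, and a library was most like its own number in 3 of 9. With 3 libraries a group, these values cannot decide whether the numbers pair the samples. With the replicate block the genes called were 819, 30 and 35 in the 3 comparisons. The unnamed unit and unknown depth limit what can be read from genes near 0, such as Tnni1.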

Other observations

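Tagln, which encodes the smooth muscle protein transgelin, was listed at 0 in 8 of the 9 hearts and at 1 in treated replicate 2. Acta2, of the same cell type, was between 117 and 328. The smooth muscle myosin Myh11 had values of 24, 41 and 38 (wild type), 30, 32 and 20 (saline mutants), and 21, 46 and 31 (treated mutants). Both genes belong to a contractile set that smooth muscle expresses together, so the value listed for Tagln was not used as evidence on smooth muscle content.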
